A study of Mus musculus with 13 samples.

Results

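The adipocyte-lineage genes described here are 10 genes of fat cell identity and fat handling: Pparg, Cebpa, Adipoq, Cfd, Apoe, Lpl, Cd36, Fabp4, Plin1 and Plin4. They were taken by name from the count matrix of the series, which held all 10 among its 23211 genes, over 13 libraries. The libraries are bulk polyA RNA from cells of mice that had received an implant in the tibia, sorted by flow cytometry and labelled LepR+, that is, carrying the leptin receptor. By the labels, 6 libraries came from bone around implants called Pressfit and 7 from fibrous tissue around implants called PMMA. Implant and tissue go together in every library and cannot be told apart, and all groups share the implantation. The labels name no strain, genotype, age or time after implantation.

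Pparg and Cebpa are the transcription factors that drive a precursor into the fat cell programme and keep each other active. Their targets include the secreted hormone adiponectin (Adipoq), the enzyme and carriers that bring fatty acids into the cell (Lpl, Cd36, Fabp4) and the perilipins that coat lipid droplets (Plin1, Plin4). In marrow, leptin receptor positive stromal cells carry part of this programme, adiponectin included, without storing fat, and they are a source of osteoblasts and of marrow adipocytes.

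Library names divided the samples further. The L002 series held 9 libraries and the XY9274 series held 4, bone 5 and 6 with fibrous 6 and 7. Within L002, 5 names contain "plus" (bone 1 and 2, fibrous 2, 3 and 4), 3 contain "Lin" (bone 3 and 4, fibrous 5), and fibrous 1 contains neither. The labels do not explain these words, give LepR+ for all 13, and do not tie libraries to animals, so a p-value here reflects variation among the 13 libraries that could be purely technical. Totals ran from 16162321 to 43217004 counts in bone and from 18056208 to 44302166 in fibrous tissue.

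In 5 libraries the RNA went against the label. Lepr, the gene of the sorted receptor, lay between 0.469 and 2.42 normalised counts per 1000000 (CPM, with library sizes scaled by edgeR's TMM factors) in bone 3, 4 and 5 and fibrous 1 and 5. It lay between 46.7 and 804 CPM in the other 8, called Lepr-high below. All 3 Lin libraries are among the 5. The fibrous and bone comparison, its lists and the rankings by likeness are given with and without them. This cannot be done for plus against Lin, where all 3 libraries of one side are of this kind. For the difference between series, leaving them out also left 0 of the 8 tested genes past the threshold. In bulk RNA, fewer cells of a type and less RNA per cell cannot be told apart.

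Libraries named plus held far more Adipoq and Lpl RNA than libraries named Lin, and less Cd36. This comparison of 5 with 3 libraries was fitted with edgeR's quasi-likelihood test, with tissue as a term, p-values adjusted by Benjamini and Hochberg over 13450 genes, and a threshold of 0.05. It called 8.16% of the genes. Of the 10 genes, 8 had enough counts to be tested and 3 were called, Adipoq and Lpl as higher and Cd36 as lower in plus. The median log2 difference of the 8 was 1.89, with 5 above 0, against 0.21 over all genes tested.

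**Figure D1:**
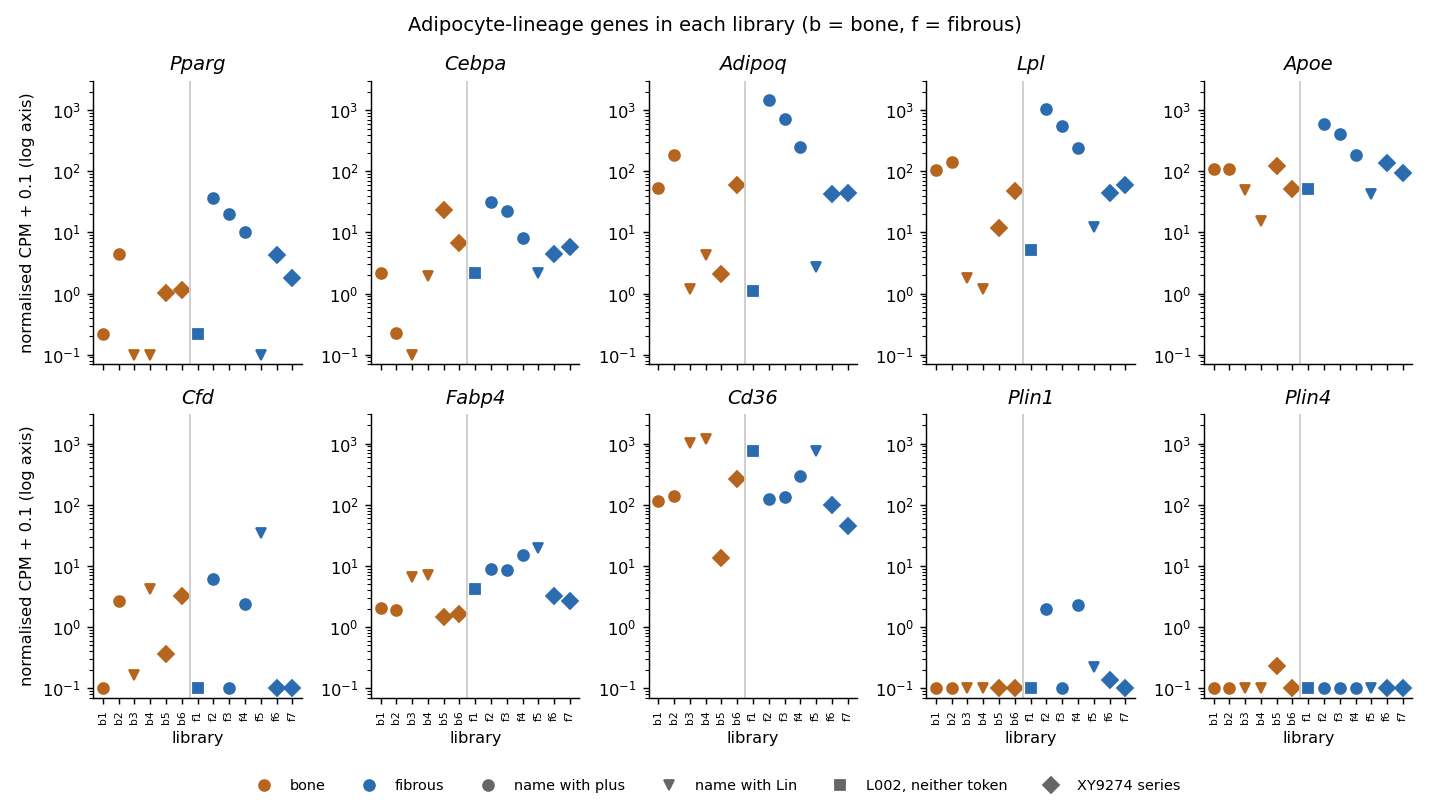
Normalised CPM of the 10 genes in each of the 13 libraries, grouped by tissue and marked by library name. Adipoq reaches 1495 CPM in fibrous 2 and lies under 5 CPM in the 5 libraries low in Lepr, whereas Cd36 is at 763 CPM or more in 4 of those 5.

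Adipoq encodes adiponectin, the hormone most typical of the fat lineage, and lies on chromosome 16 from 23146536 to 23158028 on the plus strand (mm10, as are the other positions). In the plus libraries its level was 53.5 (bone 1), 183 (bone 2), 1495 (fibrous 2), 720 (fibrous 3) and 251 CPM (fibrous 4). In the Lin libraries it was 1.10 (bone 3), 4.11 (bone 4) and 2.65 CPM (fibrous 5). The lowest plus library stood above the highest Lin library, and the fibrous plus libraries stood above the bone plus libraries. The log2 difference was 6.60 (SE 1.15; n = 5 and 3; edgeR adjusted p = 0.0237). The call was lost when bone 2 (adjusted p = 0.0547), bone 3 (0.0806), bone 4 (0.0508) or fibrous 3 (0.0608) was left out, and with limma's voom with quality weights (0.218).

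Lpl encodes lipoprotein lipase, which frees fatty acids from circulating triglyceride (chromosome 8, 68880491 to 68907448, plus strand). Its levels in plus were 104 (bone 1), 139 (bone 2), 1036 (fibrous 2), 552 (fibrous 3) and 239 CPM (fibrous 4). In Lin they were 1.68 (bone 3), 1.10 (bone 4) and 12.0 CPM (fibrous 5). The groups did not overlap, and the order of the plus libraries within fibrous tissue was that of Adipoq. The log2 difference was 6.07 (SE 0.61; n = 5 and 3; edgeR adjusted p = 0.0110). It stayed past the threshold whichever library was left out, with adjusted p between 0.00387 and 0.0477, but not with limma (0.140).

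Cd36, a fatty acid transporter of fat cells that erythroid cells, platelets and macrophages also carry, ran the other way (chromosome 5, 17781690 to 17888801, minus strand). Its levels in plus were 113 (bone 1), 140 (bone 2), 122 (fibrous 2), 135 (fibrous 3) and 290 CPM (fibrous 4). In Lin they were 1019 (bone 3), 1182 (bone 4) and 763 CPM (fibrous 5). No plus library reached the lowest Lin library. The log2 difference was -2.67 (SE 0.36; n = 5 and 3; edgeR adjusted p = 0.0150), and Cd36 was called with limma too (0.0300).

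Erythroid RNA moved with Cd36. The summed level of 10 erythroid genes, globins among them, was 397314, 599304 and 240529 CPM in bone 3, bone 4 and fibrous 5, and between 30538 and 80600 CPM in the plus libraries. All 10 were lower in plus, and 7 of them passed the edgeR test. Among all 13 libraries, bone 5 had both the least erythroid RNA, 2817 CPM, and the least Cd36, 13.5 CPM. The summed platelet markers were at 36.2 to 437 CPM in plus and 160 to 1533 CPM in Lin, and so overlapped. The macrophage markers, a sum that was mostly Lyz2, overlapped too, at 217 to 4222 and 1561 to 3775 CPM. The part of these cells in the Cd36 difference was not tested.

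Markers of other skeletal cells also differed between plus and Lin. Of 10 osteoblast genes 5 were called as higher in plus and none as lower, with a median log2 difference of 3.91, or 3.80 with the gene at 0 in Lin set to its bound. Of 11 chondrocyte genes 9 were called as higher, with a median of 3.73. Summed osteoblast markers lay between 13644 and 50291 CPM in plus and between 648 and 3736 CPM in Lin. Their part in the Adipoq and Lpl differences was not tested.

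Pparg, the nuclear receptor at the centre of fat cell formation (chromosome 6, 115360951 to 115490399, plus strand), was found in every plus library and in no Lin library. In plus it had 3 counts in bone 1 (0.118 CPM), 105 in bone 2 (4.35 CPM), 1199 in fibrous 2 (37.2 CPM), 538 in fibrous 3 (19.8 CPM) and 250 in fibrous 4 (10.1 CPM). In Lin it had 0 counts in all 3 libraries. Set against the level that 3 counts would give in bone 4, the Lin library where 1 count weighs most, 0.301 CPM, the plus mean of 14.3 CPM (SD 14.7, n = 5) was at least 47.5-fold higher. Without fibrous 2, the highest library, the bound was 28.6-fold. Both bounds describe the plus mean over both tissues, without the tissue term. They do not hold for each plus library, since bone 1 lay below the level of 0.301 CPM. The edgeR adjusted p was 0.0561, short of the threshold. DESeq2, a second count test that called 26% of all genes tested, called Pparg along with Adipoq, Lpl, Apoe, Cd36 and Fabp4.

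Cebpa, the partner factor of Pparg (chromosome 7, 35119293 to 35121928, plus strand), did not divide by name. Its levels in plus were 2.09 (bone 1), 0.124 (bone 2), 31.3 (fibrous 2), 22.1 (fibrous 3) and 8.04 CPM (fibrous 4). In Lin they were 0 (bone 3), 1.81 (bone 4) and 2.03 CPM (fibrous 5). Bone 2 lay below 2 of the 3 Lin libraries, and the log2 difference of 1.44 (SE 1.78; edgeR adjusted p = 0.642) was smaller than its error. Among the libraries outside this comparison, bone 5 had 22.9 CPM of Cebpa beside 2.42 CPM of Lepr and 0.922 CPM of Pparg. That library also held the most neutrophil RNA of the 13 (96696 CPM over 11 markers) and the most macrophage marker RNA (10466 CPM, mostly Lyz2), cells in which Cebpa is also active; their part in its Cebpa was not tested.

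Promoters of Pparg and of 2 textbook targets of these factors, Adipoq and Plin1, are shown because C/EBP proteins bind motifs of the form TTNCNNAA. RefSeq (GRCm38.p6) gave 12 windows of 250 bases before to 50 after a start for 8 of the 10 genes. Each was searched on both strands for TTNCNNAA and for a direct repeat of the kind that PPAR and RXR bind, 2 copies of AGGNCA with any 1 base between them, and the motifs found did not overlap. TTNCNNAA was in 5 of the 12 windows (41.67%), against 40.68% of all 32851 windows, and the direct repeat was in 0 of the 12, against 0.3805%. The matches lay in 1 of 3 Pparg windows, 1 of 3 Apoe windows and the single windows of Adipoq, Plin1 and Cd36; the other 2 Pparg windows and those of Cebpa, Plin4 and Cfd held none. Only windows with a match are printed. The 250 bases before the start are printed 5' to 3' with the matches to TTNCNNAA, read on either strand, in capitals. For Pparg this is the window of its 3 that lies furthest into the gene, chr6:115421816-115422065 on the plus strand. For Adipoq it is chr16:23146286-23146535 on the plus strand, and for Plin1 chr7:79732777-79733026 on the minus strand.
Pparg: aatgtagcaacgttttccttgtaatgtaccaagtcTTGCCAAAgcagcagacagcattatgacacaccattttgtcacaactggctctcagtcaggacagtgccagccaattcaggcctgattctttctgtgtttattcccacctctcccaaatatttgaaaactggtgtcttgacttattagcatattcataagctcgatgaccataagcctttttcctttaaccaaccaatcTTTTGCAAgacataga
Adipoq: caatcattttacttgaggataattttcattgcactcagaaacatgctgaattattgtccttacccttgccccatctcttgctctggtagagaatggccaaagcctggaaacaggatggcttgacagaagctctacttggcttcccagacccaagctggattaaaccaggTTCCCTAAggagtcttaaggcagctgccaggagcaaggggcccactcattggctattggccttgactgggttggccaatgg
Plin1: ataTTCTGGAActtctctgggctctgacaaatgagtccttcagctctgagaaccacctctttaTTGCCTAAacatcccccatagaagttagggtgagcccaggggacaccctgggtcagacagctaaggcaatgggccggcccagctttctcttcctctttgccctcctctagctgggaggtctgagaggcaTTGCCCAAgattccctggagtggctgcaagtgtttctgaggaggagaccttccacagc
The matches began 215 and 16 bases before the start in Pparg, 81 bases before it in Adipoq, and 247, 187 and 58 bases before it in Plin1. A match describes the letters alone.

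Plin1 and Plin4, the coats of the lipid droplet in mature fat cells, were at or near 0 counts in most libraries. Plin1 (chromosome 7, 79720218 to 79732903, minus strand) had 0 counts in all 6 bone libraries. In fibrous tissue it had 60 counts in fibrous 2, 54 in fibrous 4, 2 in fibrous 5, 2 in fibrous 6 and 0 in the other 3. Its highest level was 2.19 CPM, in fibrous 4. Fibrous 3, with 720 CPM of Adipoq, had 0 counts of Plin1, which at its depth allows up to 0.110 CPM by counting error alone. Plin4 (chromosome 17, 56100591 to 56109803, minus strand) had 6 counts in bone 5 and 0 in the other 12 libraries. Neither gene had enough counts for the tests.

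Apoe, the lipid-carrying apolipoprotein that stromal cells and macrophages secrete (chromosome 7, 19696109 to 19699188, minus strand), was found in every library. Its levels in plus were 107 (bone 1), 110 (bone 2), 587 (fibrous 2), 413 (fibrous 3) and 185 CPM (fibrous 4). In Lin they were 50.3 (bone 3), 15.1 (bone 4) and 41.9 CPM (fibrous 5). The groups did not overlap, yet the log2 difference of 2.34 (SE 0.62; n = 5 and 3; edgeR adjusted p = 0.0603) missed the threshold. Unlike Adipoq, Apoe stayed at 124 CPM in bone 5, a library low in Lepr. As given above, the macrophage marker sum was highest there and was mostly Lyz2. Adgre1, Csf1r, Cd68 and Cd163 were also highest in bone 5, while C1qa, C1qb, C1qc, Mrc1, Cd5l and Mertk were higher in other libraries. The part of macrophages in the Apoe level was not tested.

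Fabp4, the fatty acid chaperone of fat cells and capillary endothelium (chromosome 3, 10204088 to 10208576, minus strand), was low throughout, between 1.35 and 19.3 CPM. In plus it was at 1.93, 1.78, 8.71, 8.31 and 14.9 CPM in bone 1 and 2 and fibrous 2, 3 and 4. In Lin it was at 6.57, 6.92 and 19.3 CPM in bone 3 and 4 and fibrous 5. The groups overlapped, and the log2 difference of -1.42 (SE 0.61; edgeR adjusted p = 0.177) did not pass. Its highest library was one with 2.65 CPM of Adipoq. The 10 endothelial markers summed to 24.1 to 36.3 CPM in plus and 20.6 to 35.6 CPM in Lin, so the groups overlapped. Egfl7 was found in every library, at 5.51 to 26.0 CPM, Pecam1 reached 43.1 CPM in bone 5, and Cdh5 was at 0 in 10 of the 13 libraries. Bone 5 had the highest endothelial sum of the 13, 77.9 CPM, of which Pecam1 made up 43.1 CPM. Cdh5 was at 0.0857 CPM there, and the summed pan-leukocyte markers were at their highest, 8900 CPM. Its Fabp4 was the lowest of the 13, 1.35 CPM. The part of endothelial cells in the Fabp4 level was not tested.

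Cfd, the complement protease adipsin that mature fat cells secrete (chromosome 10, 79890853 to 79892655, plus strand), had 0 counts in 5 libraries. Its highest level was 34.7 CPM, in fibrous 5, where Adipoq was at 2.65 CPM. The other 12 libraries lay at or under 5.95 CPM. In fibrous 5 the summed platelet and skeletal muscle markers were also at their highest, 1533 and 113 CPM. Next in platelet markers were bone 1 (437 CPM) and fibrous 3 (368 CPM), with 0 counts of Cfd. Bone 6 (349 CPM) followed, with 102 counts. The part of these cells in the Cfd level was not tested. The plus minus Lin difference was -2.15 (SE 2.02; edgeR adjusted p = 0.534). Adipoq and Cfd, both secreted products of fat cells, had their highest levels in different libraries.

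**Figure D2:**
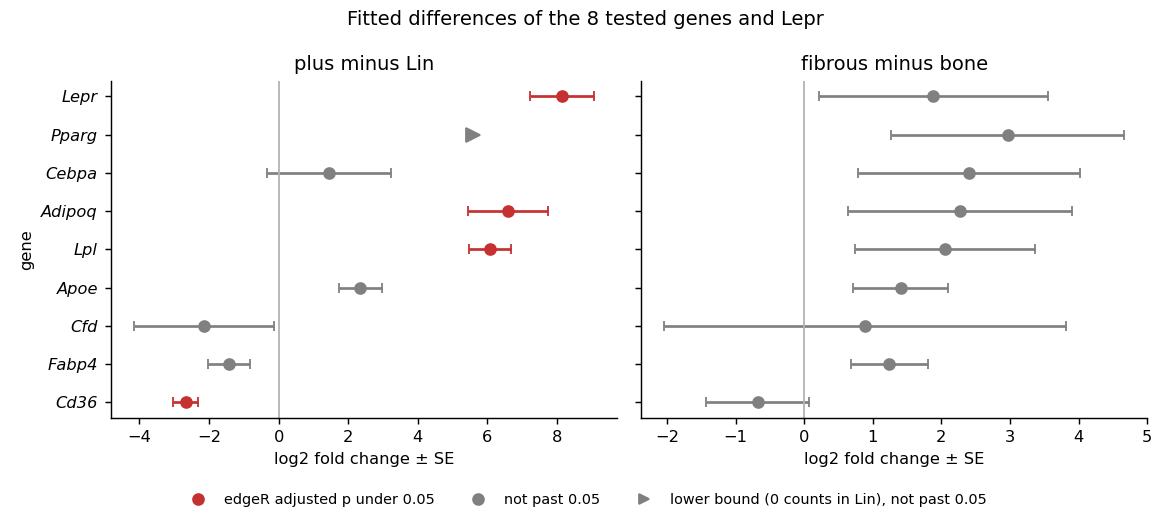
Log2 differences with their standard errors from edgeR for the 8 tested genes and Lepr, plus minus Lin on the left and fibrous minus bone on the right. On the left, Lepr, Adipoq, Lpl and Cd36 are past the threshold. The triangle there gives the lower bound for the plus mean of Pparg, without the tissue term. On the right, none is past the threshold.

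Both pairs of libraries that share a name token, bone 2 with bone 4 and fibrous 2 with fibrous 5, hold 1 plus and 1 Lin library. Adipoq was 44.5 times as high in the plus library of the bone pair and 565 times in the fibrous pair. For Lpl the ratios were 126 and 86.3, and for Apoe 7.23 and 14.0. Cd36 was at 0.118 and 0.160 of the Lin level. Cebpa went in opposite directions, at 0.0688 of the Lin level in the bone pair and 15.4 times that level in the fibrous pair. With the shared name as a block, 15 genes in all were called; Lpl was among them (edgeR adjusted p = 0.0494), while Adipoq (0.129) and Cd36 (0.0650) were not.

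The comparison that the design names is fibrous tissue against bone, and none of the genes passed its test. It was fitted with edgeR on all 13 libraries with the name series as a term, and 0% of 13294 genes were called. Of the 8 tested genes 0 were called, and Fabp4 alone was under 0.05 before adjustment. DESeq2 and limma also called 0 of the 8, while over all genes edgeR had 636 under an unadjusted 0.05, DESeq2 called 169 and limma 0. The 8 genes had a median log2 difference of 1.73, with 7 above 0, against 0.03 over all genes. Markers of other cells moved alongside, none past edgeR's test. Above 0 were 0 of 11 neutrophil genes (median -1.81), 1 of 10 pan-leukocyte genes (-1.34), 10 of 10 osteoblast genes (1.04) and 11 of 11 chondrocyte genes (0.37). The same held for 2 of 10 erythroid genes (-0.81), 2 of 9 macrophage genes (-0.83) and 5 of 7 platelet genes (0.22). Their part in these differences was not tested.

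Within each tissue the libraries spread over orders of magnitude. Adipoq ran from 1.10 through a median of 28.8 to 183 CPM in bone, and from 1.02 through 43.6 to 1495 CPM in fibrous tissue. Lpl ran from 1.10 through 29.2 to 139 CPM in bone and from 5.04 through 59.5 to 1036 CPM in fibrous tissue. The tissues overlapped for both genes, and fibrous 2, 3 and 4 stood above every bone library. The log2 difference was 2.27 (SE 1.63) for Adipoq and 2.05 (SE 1.31) for Lpl, with edgeR adjusted p of 0.873 for each.

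Pparg ran from 0 through 0.520 to 4.35 CPM in bone and from 0 through 4.16 to 37.2 CPM in fibrous tissue. Cebpa ran from 0 through 1.95 to 22.9 and from 2.03 through 5.71 to 31.3 CPM. The tissues overlapped for both factors, and the log2 differences were 2.96 (SE 1.70) and 2.40 (SE 1.62). With 1 library left out, Pparg ran from 2.35 (without fibrous 2) to 5.71 (without bone 2). Apoe, with 15.1 through 78.9 to 124 CPM in bone and 41.9 through 136 to 587 CPM in fibrous tissue, differed by 1.41 (SE 0.69). Fabp4, with 1.35 through 1.86 to 6.92 and 2.59 through 8.31 to 19.3 CPM, differed by 1.24 (SE 0.56). Cd36 was the only one of the 8 with a negative value, -0.68 (SE 0.75), at 13.5 through 202 to 1182 CPM in bone and 44.9 through 135 to 768 CPM in fibrous tissue. The adjusted p of the 8 genes lay between 0.873 and 0.968.

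Leaving out the 5 libraries low in Lepr left 3 bone and 5 fibrous libraries. The differences were then 2.66 for Pparg, 2.23 for Cebpa, 1.89 for Fabp4, 1.64 for Apoe, 1.49 for Lpl, 1.48 for Adipoq and -0.42 for Cd36. None of the 8 passed edgeR's test, with 2 under an unadjusted p of 0.05. Cfd, at 0.88 (SE 2.93) over all libraries, changed sign to -2.98. Of the markers, the neutrophil median was then -1.06 (0 of 11 above 0), the osteoblast median 0.50 (10 of 10) and the chondrocyte median -0.05 (5 of 11). The pan-leukocyte median was -0.65 (0 of 10), the erythroid -0.75 (1 of 10), the macrophage -0.43 (3 of 9) and the platelet -0.74 (2 of 7).

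**Figure D3:**
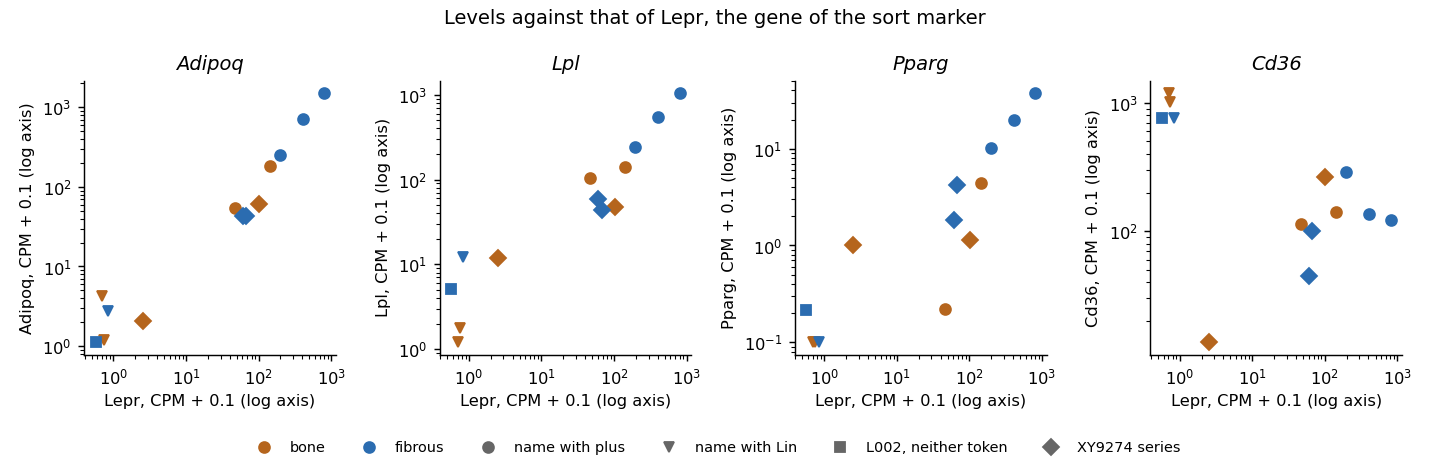
Normalised CPM of the genes against that of Lepr in the 13 libraries, both on log axes. Adipoq and Lpl lie at their lowest in the 5 libraries low in Lepr and at their highest in fibrous 2, where Lepr is at 804 CPM, while Cd36 does not follow this order.

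The same contrast was looked at in each name series. In L002 (4 bone, 5 fibrous) the log2 differences were 3.57 for Pparg, 3.66 for Cebpa, 3.02 for Adipoq and 2.57 for Lpl. In XY9274 (2 bone, 2 fibrous) they were 1.52, -1.64, 0.41 and 0.77. Of its bone libraries, bone 5 was low in Lepr and bone 6 was not. Adipoq was at 1.95 CPM in bone 5 and 60.7 in bone 6, against 42.6 and 43.6 in fibrous 6 and 7. Cebpa was at 22.9 CPM in bone 5 and 6.64 in bone 6, against 4.27 and 5.71 in fibrous 6 and 7. The signs of these XY9274 differences for Adipoq and Cebpa thus rest on bone 5. No gene of the 13294 passed edgeR's test of the difference between the series (0%), with 292 under an unadjusted p of 0.05, and DESeq2 called 25. Of the 8 genes here 0 passed with either tool, and 2 were under 0.05 before adjustment by edgeR, Cebpa at -5.27 (SE 2.37) and Cfd at -11.02 (SE 4.90). For Cfd the fitted value rests on libraries at 0 counts, including both fibrous libraries of XY9274.

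Relative to Lepr, the genes can be set side by side in the 8 Lepr-high libraries, as ratios of normalised CPM and with no test. Adipoq stood at 1.15, 1.28 and 0.596 times Lepr in bone 1, 2 and 6. In fibrous 2, 3, 4, 6 and 7 it stood at 1.86, 1.77, 1.28, 0.634 and 0.723 times Lepr. Adipoq itself ranged from 42.6 to 1495 CPM in these libraries and its ratio from 0.596 to 1.86, and the lowest ratios in both tissues were those of the XY9274 series. Lpl lay at 2.22, 0.976 and 0.459 in bone and at 1.29, 1.36, 1.22, 0.655 and 0.987 in fibrous tissue.

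Pparg varied more against Lepr. Its ratio was 0.00253, 0.0305 and 0.0102 in bone 1, 2 and 6, and 0.0462, 0.0486, 0.0516, 0.0618 and 0.0287 in fibrous 2, 3, 4, 6 and 7. Bone 1, with 3 counts of Pparg beside 1358 of Adipoq and 1184 of Lepr, had the lowest ratio, with a 95% counting interval (exact Poisson) of 0.000523 to 0.00740. The bone ratios lay at the low end, and bone 2 overlapped fibrous 7. Cebpa was at 0.0448, 0.000871 and 0.0651 in bone, the middle value resting on 3 counts (95% counting interval 0.00018 to 0.00254), and at 0.0390 to 0.0948 in fibrous tissue. Pparg was thus at its lowest against Lepr in bone 1, and Cebpa in bone 2.

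**Figure D4:**
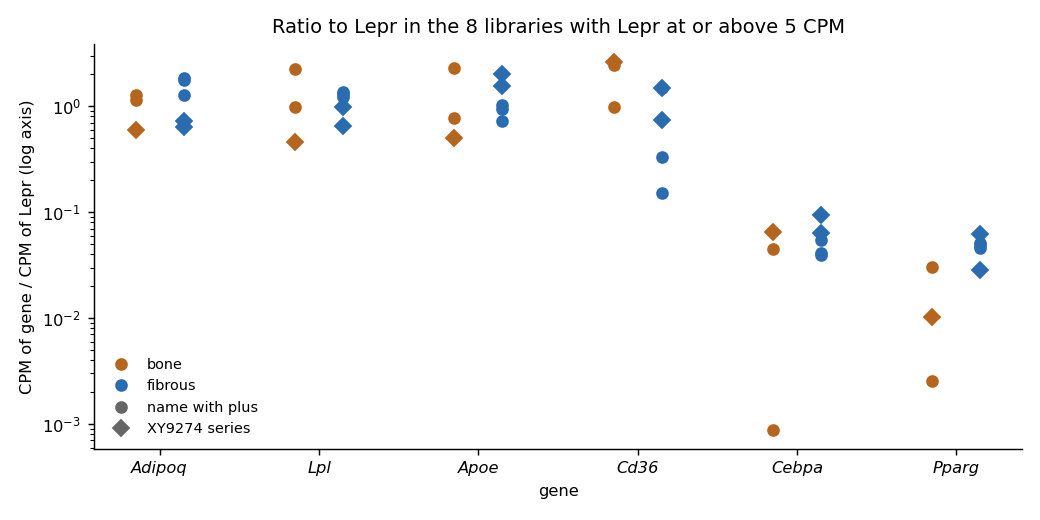
Ratio of normalised CPM to that of Lepr in the 8 libraries with high Lepr, on a log axis, with bone and fibrous libraries apart. Adipoq and Lpl stay between 0.459 and 2.22, while Pparg falls to 0.00253 in bone 1 and Cebpa to 0.000871 in bone 2.

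Compared per kilobase of merged annotated exon, so that genes can be ranked, the median level in the 8 Lepr-high libraries was 88.3 CPM per kb for Adipoq, 57.4 for Apoe and 35.8 for Cd36. Lepr itself was at 17.4 and Lpl at 11.6. The transcription factors followed at 2.34 for Cebpa and 1.44 for Pparg, then Cfd at 1.23 and Fabp4 at 0.636, and the perilipins had a median of 0. Across libraries the ranges of neighbours in this order overlapped, those of Adipoq (30.9 to 1083) and Apoe (23.6 to 275) among them. Merged exons can be longer than a single transcript. For Fabp4 they came to 4489 bases, the whole span of the gene, so its low place in this order depends on the length used. For Lpl they came to 10478 bases. Before division by length its median was 122 CPM, as was that of Lepr, so its place below Lepr depends on the length too.

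The wider fat cell pathway was read from 9 lists of 164 genes, of which 145 were in the matrix and 119 were tested in plus against Lin. The list of marrow adipogenic stroma holds receptors, transcription factors, secreted factors and other genes by which such cells are known. By edgeR, 16 of 26 were called as higher in plus and none as lower, against 8.16% of all genes tested. DESeq2, with its 26% over all genes, called 20 and limma 0. The list includes Lepr itself. It was chosen with earlier results of these data known, so its counts are not an independent test. All 26 were above 0, with a median log2 difference of 5.77, or 5.58 with the 2 genes at 0 in Lin set to their bound. The median over all genes tested was 0.21. Pdgfrb, a growth factor receptor of perivascular cells, was at 95.6 CPM (SD 75.3, n = 5) in plus and differed by 7.10 (SE 0.66). Esm1 differed by 8.29 (SE 0.88) and Igfbp5, which binds insulin-like growth factors, by 5.73 (SE 0.61). With the shared name as a block these 3 were no longer called (edgeR adjusted p 0.0748, 0.0791 and 0.0650).

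In each of the remaining lists edgeR called 0 to 3 genes, which for lists of this size is mostly near the 8.16% called over all genes. In lipid uptake and lipoprotein handling 1 of 17 did, the lipoprotein receptor Lrp1, at 43.0 CPM (SD 24.2, n = 5) in plus and 0.601 (SD 0.465, n = 3) in Lin, a log2 difference of 5.94 (SE 0.61). In lipid synthesis 2 of 17 did, malic enzyme Me1 at 3.65 (SE 0.73) and the fatty acid desaturase Scd2 at 3.95 (SE 0.97). Among adipogenic regulators 1 of 18 did, Stat5a, at 1.71 (SE 0.41), and among other adipokines 1 of 9, Rarres2, which encodes chemerin. DESeq2, with its 26% over all genes, called 9 of 17 in lipid uptake, 3 of 17 in lipid synthesis, 5 of 18 regulators and 5 of 9 adipokines. Lrp1 kept its call whichever library was left out and with limma, but not with the shared name as a block (edgeR adjusted p = 0.1002), whereas Stat5a lost it whichever was left out (adjusted p 0.0567 to 0.135). Me1 kept it only without fibrous 4 (0.0364), Scd2 only without fibrous 5 (0.0139), and Rarres2 without bone 1, bone 2 or fibrous 4.

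In the list of lipid droplet and lipolysis genes, edgeR, DESeq2 and limma each called 0 of 11 in plus against Lin, with 2 under an unadjusted edgeR p of 0.05, and the median was 0.35. With 8.16% of all genes called by edgeR, a count of 0 among 11 is near the background. In the list of genes that restrain fat cell formation, edgeR called 0 of 8 (3 unadjusted, DESeq2 2, limma 0), with a median of 0.52. Of thermogenic fat genes only 2 were tested and edgeR called 0 (0 unadjusted, DESeq2 0, limma 0). Of 13 genes of fibro-adipogenic progenitors, fat-forming cells of connective tissue, Clec11a (2.37, SE 0.42) and Osr1 were called as higher and Cd24a (-1.49, SE 0.25) as lower. Osr1 had 0 counts in all Lin libraries and was at least 10.8-fold higher in plus, and its call was lost whichever library was left out (edgeR adjusted p 0.0514 to 0.0864). Clec11a and Cd24a each lost theirs in 5 of the 8 such fits, with adjusted p up to 0.0754 and 0.0652.

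Between fibrous tissue and bone, edgeR called 0 of the 120 tested genes of these 9 lists, with 5 under an unadjusted p of 0.05; limma called 0 and DESeq2 4. The largest list median was 1.90, in marrow adipogenic stroma, where 25 of 25 were above 0. The droplet and lipolysis list had a median of -0.24, with 2 of 11 above 0. G0s2, an inhibitor of triglyceride lipase, was at 101 CPM (SD 106, n = 6) in bone and 34.7 (SD 22.1, n = 7) in fibrous tissue. Cav1, a coat protein of caveolae, was at 10.4 (SD 18.1) and 42.9 CPM (SD 45.5). Neither gene passed the test. Without the 5 libraries low in Lepr, edgeR called 0 of 129 tested list genes (14 unadjusted), and the medians were 1.26 in marrow adipogenic stroma, with 26 of 26 above 0, and -0.16 in the droplet list, with 5 of 11. In the same libraries G0s2 was at 51.4 CPM (SD 51.9, n = 3) in bone and 40.1 (SD 22.5, n = 5) in fibrous tissue, and Cav1 at 18.4 (SD 24.95) and 52.1 CPM (SD 52.3).

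The genes whose pattern over the 13 libraries was most like that of Adipoq were ranked by the root mean square difference of centred log2 CPM among 9577 genes. They were Kng1 (0.43), Plpp3 (0.67), Ms4a4d (0.70), Esm1 (0.76), Dpep1 (0.79) and Fbln5 (0.86). On the same scale Lepr was at 0.93 from Adipoq, Lpl at 1.22, Pparg at 1.68, Apoe at 2.53, Cebpa at 3.22 and Cd36 at 4.38. By rank in likeness to Adipoq among the 9577 genes, Lepr stood at 10, Lpl at 16, Pparg at 46 and Cebpa at 1815. Lepr and Lpl thus lay nearer to Adipoq than the transcription factors did, and Pparg lay far nearer than Cebpa. In the 8 Lepr-high libraries alone the nearest were Kng1 (0.30), Kng2 (0.33), Ms4a4d (0.34), Gdpd2 (0.37), Fbln5 (0.40) and Serping1 (0.44). Lpl was there at 0.48 from Adipoq, Lepr at 0.60 and Apoe at 1.02. Pparg and Fabp4 were each at 1.29, Cd36 at 1.80 and Cebpa at 2.09. Nearest to Pparg over all 13 were Maob (0.88), Adh1 (0.99), Il7 (1.04), Pappa (1.06), Marc1 (1.09) and Antxr1 (1.17), and in the 8 libraries Fah (0.68), Adh1 (0.69), Creld1 (0.71), Aldh1a2 (0.72), Il7 (0.74) and Maob (0.86). Kng1, Ms4a4d and Fbln5 were thus among the 6 nearest to Adipoq in both rankings, and Adh1, Il7 and Maob among those nearest to Pparg.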

How the data were processed

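RNA was measured in 13 libraries. The values are raw counts per gene, deposited by the authors as 1 matrix of whole numbers, and all of its columns were used. The submitters' processing notes list edgeR and 2 builds, hg38 and mm10, without versions or roles. The aligner, counter, annotation and strandedness were not given in the sources used here. Positions and exon lengths come from GENCODE M21, and promoters from RefSeq (GRCm38.p6). Depth was 16162321 to 44302166 counts per library, and intervals and the 3-count floor cover counting error only.

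The tests were edgeR 4.0.16 (R 4.3.3; TMM, filterByExpr, robust quasi-likelihood, Benjamini-Hochberg over all tested genes). Each SE was derived as log2 difference over root F. Scripts were tested on simulated data. Alternatives were RLE size factors, DESeq2 1.42.0, limma 3.58.1 (voom with quality weights), other filters, other terms, name series alone, and leaving out libraries; leaving out the 5 libraries low in Lepr, and each plus library for the Pparg bound, was chosen after seeing the data. The genes and lists were chosen with earlier results of these data known.

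Named were the 10 genes, Lepr, from each of 9 programme lists the 3 genes with the smallest p in plus minus Lin and the 2 in fibrous minus bone, the summed level and 2 leading genes of each marker list, and the 6 genes most like Adipoq and Pparg (mean of at least 5 CPM, prior count 2). The text describes a subset. Pecam1 and Cdh5 were chosen after their values were seen.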

Additional observations from a re-analysis of the deposited data

Results flagged for a closer look

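Plin4 in bone 5 stood apart from the rest of its group. It was at 0.129 CPM there, from 6 counts, while the other 5 bone libraries were at 0. In all, 20 sets of libraries were examined in this way (each gene in each tissue). The limit used lets about 1 in 20 pass by chance when values vary continuously. With the other 5 bone libraries at 0, any count above 0 in bone 5 would have passed it, so that rate does not apply here.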

How the results depend on the processing

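In plus against Lin, 1097 genes were called by edgeR, 3495 by DESeq2, 566 by limma and 15 with the shared name as a block. Leaving out 1 library gave between 138 (without fibrous 3) and 992 (without fibrous 4). Of the 10 genes, 3 were called by edgeR, 6 by DESeq2, 1 by limma (Cd36), 5 without the tissue term, 1 with the block (Lpl), and 2 to 4 with 1 library left out. In fibrous against bone DESeq2 called 169 genes against 0, and for the difference between series 25, or 1 with edgeR without the libraries low in Lepr. The cause of these changes was not tested. No paired analysis was possible because replicate numbers were given in accession order and pair no libraries across tissues; the block above joins only libraries that share a name token.

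Signs changed for a few values that never passed the test. In fibrous minus bone, Cebpa was -1.64 in the XY9274 series alone and Cd36 0.33 without the Lin libraries. Cfd was -1.43 with limma, -9.31 in XY9274, -2.99 without the Lin libraries and -2.98 without those low in Lepr. With 1 library left out Cfd ran from -0.11 to 1.68, below 0 without bone 1 (-0.0726) or bone 3; it was not tested without fibrous 2, 4 or 5. Cox7a1 in plus minus Lin ran from -1.24 to 1.24, above 0 without fibrous 5. For the difference between series, Adipoq ran from -4.06 to 1.44 and Cd36 from -1.31 to 2.97, both highest without bone 6. Adipoq, Lpl, Pparg, Apoe and Fabp4 kept their direction in fibrous minus bone under all 23 alternatives. These refit the same libraries or parts of them, so a kept direction is not independent support. None of these genes was called in any of them. Genes near 0 counts, such as the perilipins, are limited by depth.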
